A study of Mus musculus with 12 samples.

Results

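The E2F family of transcription factors comprises E2f1 to E2f8 in the mouse, and the genes were followed here by their messenger RNA in primary embryonic fibroblasts (MEFs) whose E2f1 gene was either wild-type or carried the 3KR mutation. The members were taken by gene symbol, which matched 8 of the 37991 Ensembl gene identifiers in the count files. In GRCm38 the activator genes are E2f1 (ENSMUSG00000027490, chromosome 2), E2f2 (ENSMUSG00000018983, chromosome 4) and E2f3 (ENSMUSG00000016477, chromosome 13). The others are E2f4 (ENSMUSG00000014859, chromosome 8), E2f5 (ENSMUSG00000027552, chromosome 3), E2f6 (ENSMUSG00000057469, chromosome 12), E2f7 (ENSMUSG00000020185, chromosome 10) and E2f8 (ENSMUSG00000046179, chromosome 7). E2F proteins bind the promoters of cell cycle genes, most of them as dimers with a DP partner, and are restrained by the pocket proteins (the retinoblastoma protein and its relatives) until cyclin-dependent kinases phosphorylate these in late G1. E2f1, E2f2 and E2f3 encode the members known as activators, E2f4 and E2f5 encode repressors that work with pocket proteins, E2f6 encodes a repressor that needs no pocket protein and joins a Polycomb complex, and E2f7 and E2f8 encode atypical members that repress E2F target genes without DP. In the 3KR allele, arginine, which cannot be acetylated, takes the place of the lysines at which E2F1 protein gains acetyl groups once DNA is damaged.

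RNA-seq libraries were made from 12 samples in 4 groups of 3. Wild-type untreated MEFs and wild-type NCS MEFs came from wild-type FVB embryos, whereas 3KR untreated MEFs and 3KR NCS MEFs came from homozygous E2f1 3KR/3KR knock-in embryos of the same strain. All cells were isolated at embryonic day 13.5, kept at 5% oxygen and used at passage 3. The NCS groups received neocarzinostatin, a radiomimetic drug that breaks DNA, at 250 ng/ml for 3 h before harvest. The knock-in was made in FVB zygotes with a zinc finger nuclease and a donor that also carried silent base changes, so the groups labelled 3KR differ from wild-type by more bases than the lysine codons. The labels do not say that the 3 samples of a group came from separate embryos, and the p-values therefore measure the spread between these samples, which may be technical. The study describes its graphs as 3 independent experiments on cells or mice and does not name embryos for these samples. Deposited gene counts summed to between 33203757 and 45279321 per sample. At that depth a floor of 3 counts corresponds to 0.0663 to 0.0904 CPM (counts scaled to library size), a limit that covers counting error only.

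The wild-type sample numbered 3 stood apart from its group under both treatments. A chi-square of the counts of paired samples over the tested genes, divided by the number of genes, was 9.14 and 8.95 between wild-type untreated replicate 3 and the other replicates, against 2.25 between replicates 1 and 2. In wild-type NCS MEFs the same measure was 7.34 and 7.87 for replicate 3 against 2.22 for the other pair, and in the 3KR groups it ran from 2.02 to 2.29 for every pair. The NCS response of each member in wild-type MEFs is therefore given with and without both replicates 3, while levels, markers and lists include them. Sex also followed genotype: normalised counts of Xist, the RNA that silences an X chromosome in female cells, ran from 32.3 to 62.5 in the 6 wild-type samples and from 30590 to 35635 in the 6 3KR samples, whereas Ddx3y on the Y chromosome ran from 5370 to 5822 in wild-type and reached at most 16.2 in 3KR samples. Effects of sex, of embryo or litter and of the 3KR allele cannot be told apart in any comparison of the genotypes.

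The MEF label was checked against marker genes. Summed over 10 fibroblast markers, expression lay between 43451 and 52985 CPM in every sample, with Col1a1 the most abundant and Pdgfra the marker with the widest relative range (117 to 406 CPM). None of the 10 was at 0 counts in any sample. Among the other lists, the 5 erythroid markers summed to at most 0.420 CPM, with Hbb-bt and Hbb-bs at 0 counts in all 12 samples, and the 6 endothelial markers summed to at most 6.59 CPM, with Cldn5 at 0 counts in 9 samples. The 5 epithelial markers reached 15.1 CPM, most of it Krt19. The 6 skeletal muscle markers summed to 117 to 125 CPM in wild-type and 40.7 to 44.2 CPM in 3KR samples, nearly all of it desmin (Des), with Myf5 at 0 counts in 11 samples. Macrophage and Schwann cell or neural crest markers, which differed between the genotypes, are given with the genotype comparisons.

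Levels of the 8 genes were compared per length, as reads scaled to library size and to the length of all exons of a gene joined, the exon union (RPKM). E2f4 was the most abundant member in every group, at 31.3 ± 1.20 RPKM in wild-type untreated, 31.6 ± 0.445 in wild-type NCS, 30.4 ± 0.996 in 3KR untreated and 31.3 ± 0.701 RPKM in 3KR NCS MEFs (mean ± SD, n = 3). Its range did not overlap that of the next member in any group. Over the 12 samples its mean RPKM exceeded that of 90.0% of the 14794 tested genes with a length, whose median was 4.29 RPKM. E2f1 (mean 9.81 RPKM over the 12 samples), E2f3 (8.96 RPKM), E2f6 (8.31 RPKM) and E2f5 (7.70 RPKM) followed within a narrow band. In wild-type untreated MEFs neighbours among these 4 genes overlapped in their sample ranges and did not differ beyond their spread, while in 3KR NCS MEFs each stood clear of the next, in the order E2f1, E2f3, E2f6 and E2f5. E2f8 (2.55 RPKM) and E2f7 (2.21 RPKM) lay lower, with overlapping ranges in both untreated groups and with E2f8 above E2f7 in both NCS groups. E2f2 was the lowest in every group, at a mean of 0.54 RPKM over the 12 samples and above 19.5% of tested genes.

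The order in the middle of the family depended on which length was used. With the length of the longest annotated transcript in place of the exon union, E2f6 moved from 8.31 to 15.6 RPKM, above E2f1 at 11.2 RPKM, and E2f7 moved from 2.21 to 3.64 RPKM beside E2f8 at 3.75 RPKM. E2f4 at 38.3 RPKM stayed highest and E2f2 at 0.558 RPKM lowest. Summed by role on the exon-union scale, E2f4 and E2f5 made up 55.5% ± 1.07 of the family's RPKM in wild-type untreated, 54.9% ± 0.490 in wild-type NCS, 55.6% ± 0.773 in 3KR untreated and 52.3% ± 1.09 in 3KR NCS MEFs (mean ± SD, n = 3). E2f7 and E2f8 made up 5.97% ± 0.0725, 5.99% ± 0.445, 6.66% ± 0.267 and 8.09% ± 0.330 of it in the same order of groups. For both shares the range in 3KR NCS MEFs did not overlap that of any other group.

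**Figure D1:**
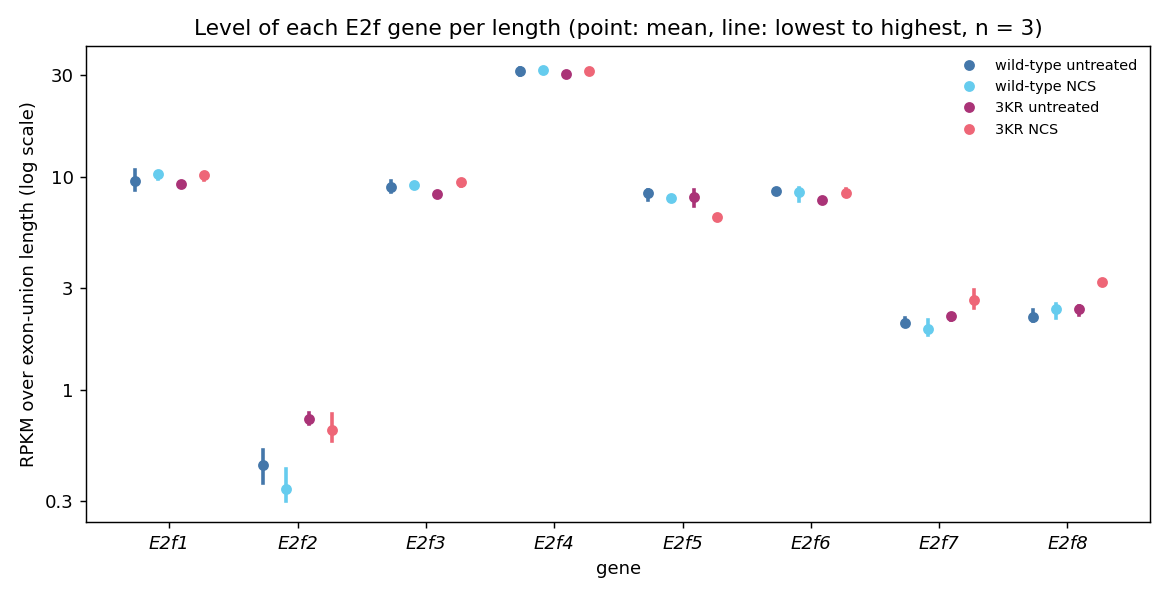
RPKM over the exon-union length (vertical log axis) of each E2f gene in the 4 groups of 3 samples; points are group means and lines run from the lowest to the highest sample. E2f4 lies near 31 RPKM in every group, E2f2 below 1 RPKM, and E2f7 and E2f8 are highest in 3KR NCS MEFs.

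Expression was tested with edgeR over 15327 genes, and a gene was called at a false discovery rate (FDR) under 0.05 across all of them. All 8 members passed the filter on low counts. In wild-type MEFs, 0 of 8 members were called after NCS, against 26.7% of all tested genes (14.3% higher and 12.4% lower). The count was also 0 at an unadjusted edgeR p under 0.05 and 0 by DESeq2. Leaving out both wild-type replicates 3 brought it to 2, namely E2f1 and E2f7, and leaving out a single library brought it to 1 for wild-type untreated replicate 3 (E2f1) and for wild-type NCS replicate 1 (E2f2). The 26.7% belongs to the edgeR fit of all samples at an FDR under 0.05 and is no background for these other counts. In 3KR MEFs, 4 of 8 members were called after NCS, 3 higher (E2f3, E2f7 and E2f8) and 1 lower (E2f5), against 30.8% of tested genes (15.8% higher and 15.0% lower). Without both wild-type replicates 3 this count was 6, with E2f1 and E2f6 added, in a fit for which 30.8% is not the background. The median log2 fold change of the 8 members was -0.0018 in wild-type and 0.12 in 3KR MEFs, beside medians of 0.0054 and -7.8e-04 over all tested genes.

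Between genotypes without treatment, 3 of 8 members were called, 1 higher in 3KR (E2f2) and 2 lower (E2f3 and E2f6), against 45.7% of all tested genes (22.1% higher and 23.6% lower). The count was 1 without 3KR untreated replicate 1, which kept E2f2 alone, and 3 without both wild-type replicates 3, with E2f8 in place of E2f3. Over all tested genes 6266 and 7593 were called in these fits, against 7007 in the main fit. After NCS, 4 of 8 were called, 3 higher in 3KR (E2f2, E2f7 and E2f8) and 1 lower (E2f5), against 46.5% of tested genes (22.9% higher and 23.6% lower). Both counts lie near the background share of a comparison in which close to every other gene was called. The median log2 fold change of the 8 members was -0.037 without treatment and 0.017 after NCS, beside -3.6e-04 and 0.0037 over all tested genes. The NCS and genotype comparisons share samples, so their values are given side by side and not as independent results.

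**Figure D2:**
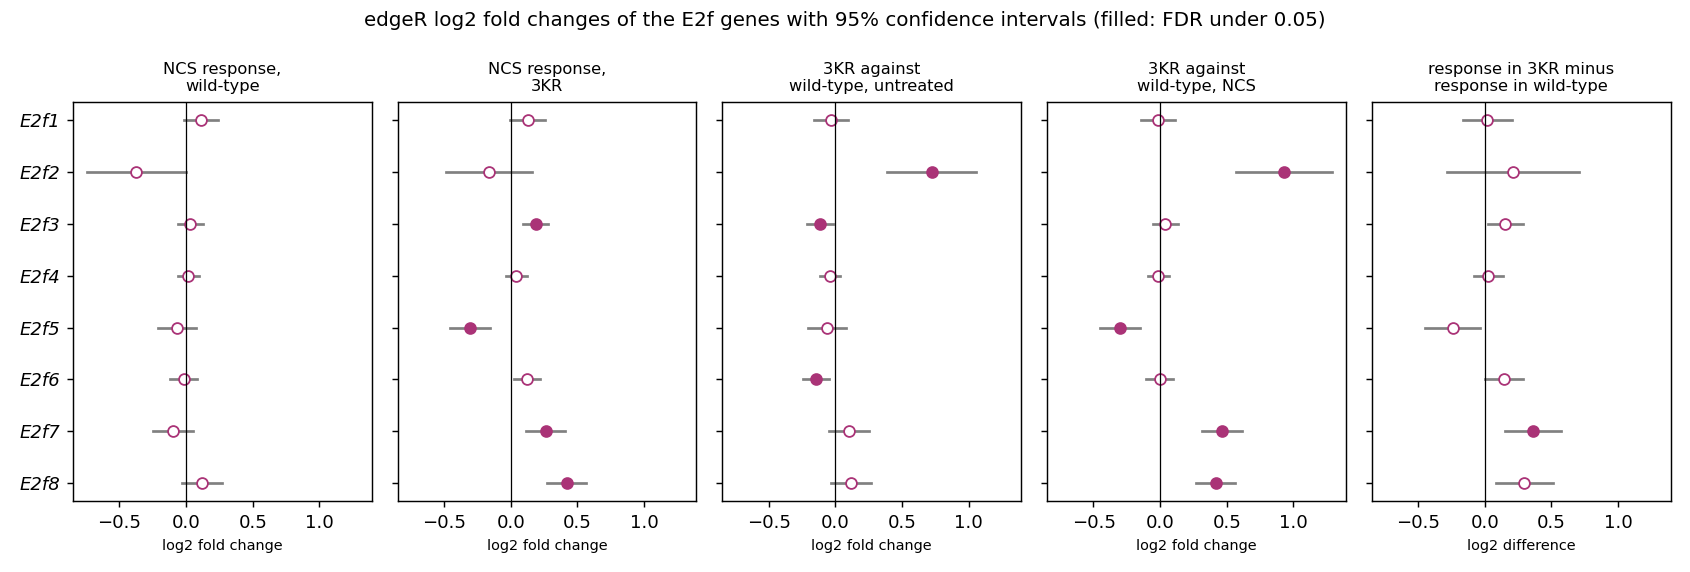
edgeR log2 fold changes (horizontal axes) of the 8 E2f genes with 95% confidence intervals in the 4 comparisons of groups and, at the right, the response in 3KR minus the response in wild-type MEFs; filled points have an FDR under 0.05. No point is filled for NCS in wild-type MEFs, 4 are filled for NCS in 3KR MEFs, and E2f7 alone is filled for the difference between the responses.

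Among the activators, E2f1 is the gene that carries the mutation. The 3KR allele exchanges lysine codons 112, 115 and 120 of the mouse reading frame, which has 430 codons, and their surroundings in the reference are shown because they hold the codons the mutation is named for. In GRCm38 the stretch from codon 108 to codon 124 lies on the minus strand of chromosome 2, with 16 bases at the end of exon 2 (chr2:154564418-154564433) and 35 bases at the start of exon 3 (chr2:154564080-154564114), all of it coding. Capitals mark the 3 lysine codons of the wild-type sequence.
E2f1 codons 108 to 124: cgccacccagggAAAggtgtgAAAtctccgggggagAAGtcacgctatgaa
Gene counts do not show which codons a read carried, and the level of E2f1 is no check of the genotype labels, since a knock-in leaves the gene in place.

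E2f1 gave 1042, 1099 and 1296 normalised counts in wild-type untreated MEFs and 1173, 1261 and 1277 in wild-type NCS MEFs. In 3KR untreated MEFs it gave 1125, 1111 and 1128 normalised counts and in 3KR NCS MEFs 1259, 1167 and 1243. The wild-type groups overlapped because untreated replicate 3 was the highest of all 12 samples, whereas every 3KR NCS sample was above every 3KR untreated sample. The log2 fold change with NCS was 0.11 ± 0.062 (SE) in wild-type (edgeR FDR = 0.211) and 0.13 ± 0.063 in 3KR MEFs (edgeR FDR = 0.135), and neither was called. Without both wild-type replicates 3 the same values were 0.18 (edgeR FDR = 0.00788) and 0.13 (edgeR FDR = 0.0267), and without wild-type untreated replicate 3 alone the wild-type value was 0.21 (edgeR FDR = 0.00383). It moved the other way without wild-type untreated replicate 1 (0.044, edgeR FDR = 0.696) or 2 (0.083, edgeR FDR = 0.454), the bounds over its 13 alternatives being 0.044 and 0.21. The 3KR value was past the threshold in a fit of the 6 3KR samples alone (0.13, edgeR FDR = 0.0218). Between genotypes E2f1 differed by -0.033 on the log2 scale without treatment (95% interval -0.16 to 0.097, edgeR FDR = 0.710) and by -0.016 after NCS (-0.15 to 0.11, edgeR FDR = 0.863), and the groups overlapped in both cases. Both differences turned positive without the wild-type replicates 3, at 0.070 (edgeR FDR = 0.280) and 0.011 (edgeR FDR = 0.878).

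E2f2, the least abundant activator, was the member that separated the genotypes most. It gave 82.0, 68.0 and 97.3 normalised counts in wild-type untreated and 129, 135 and 145 in 3KR untreated MEFs. After NCS it gave 78.9, 56.2 and 56.7 normalised counts in wild-type and 144, 107 and 113 in 3KR MEFs. All 6 3KR samples were above all 6 wild-type samples. The log2 difference of 3KR from wild-type was 0.72 ± 0.16 (SE) without treatment (1.65-fold, edgeR FDR = 7.76e-04) and 0.93 ± 0.17 after NCS (1.91-fold, edgeR FDR = 1.08e-04). Without both wild-type replicates 3 these were 0.85 and 0.86 (edgeR FDR = 2.93e-05 and 6.40e-05). With NCS, E2f2 had a log2 fold change of -0.37 in wild-type (95% interval -0.75 to 0.0014, edgeR FDR = 0.137) and -0.16 in 3KR MEFs (-0.49 to 0.16, edgeR FDR = 0.472), with overlapping groups in both. The 3KR value was -0.31 without 3KR NCS replicate 1 and -0.085 without 3KR NCS replicate 2 (edgeR FDR = 0.222 and 0.771). Leaving out wild-type NCS replicate 1, the highest of its group, gave -0.55 in wild-type (edgeR FDR = 0.0490), whereas it was -0.25 without wild-type untreated replicate 3 (edgeR FDR = 0.394) and -0.17 without both wild-type replicates 3 (edgeR FDR = 0.597). Counts of this size, 57 to 159 reads per sample before scaling, leave intervals wider than those of any other member.

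E2f3, the remaining activator, gave 1685, 1770 and 1702 normalised counts in 3KR untreated and 1964, 1885 and 2005 in 3KR NCS MEFs. Every treated sample was above every untreated sample, with a log2 fold change of 0.19 ± 0.046 (SE; edgeR FDR = 0.00319). In wild-type MEFs it gave 1756, 1834 and 1981 normalised counts untreated and 1862, 1906 and 1930 after NCS, and the NCS samples fell inside the untreated range. The wild-type log2 fold change was 0.031 (95% interval -0.063 to 0.12, edgeR FDR = 0.684), and 0.068 without both replicates 3 (edgeR FDR = 0.269). Without treatment E2f3 was lower in 3KR than in wild-type MEFs by a log2 difference of -0.12 ± 0.046 (edgeR FDR = 0.0421), although the groups overlapped. This call was lost in 9 of 13 alternatives, among them DESeq2 size factors (edgeR FDR = 0.0538) and the DESeq2 test (DESeq2 FDR = 0.0858), with an FDR between 0.0126 and 0.241 over the 13. Leaving out a single library ended it for wild-type untreated replicate 2 (edgeR FDR = 0.0591), wild-type untreated replicate 3 (0.241), 3KR untreated replicate 1 (0.136) and 3KR untreated replicate 3 (0.115), and the difference without both wild-type replicates 3 was -0.060 (edgeR FDR = 0.237). After NCS the genotype difference had the other sign, at 0.039 (edgeR FDR = 0.511) with overlapping groups, and ran from 0.020 to 0.064 over its 13 alternatives.

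Among the repressors that act with pocket proteins, E2f4 varied least. Its normalised counts ran from 2746 to 3039 over the 12 samples, and its 4 groups overlapped. The log2 fold changes with NCS were 0.016 in wild-type (95% interval -0.062 to 0.094, edgeR FDR = 0.814) and 0.042 in 3KR MEFs (-0.037 to 0.12, edgeR FDR = 0.446), and the genotype differences were -0.041 and -0.015 without treatment and after NCS (edgeR FDR = 0.407 and 0.780). Without both wild-type replicates 3 the wild-type NCS value was 0.036 (edgeR FDR = 0.515). E2f4 was called in no comparison and under no alternative.

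E2f5, the other repressor of this pair, gave 499, 544 and 593 normalised counts in 3KR untreated MEFs and 450, 427 and 444 in 3KR NCS MEFs. All treated samples were below all untreated samples, and E2f5 was the only member called lower after NCS, with a log2 fold change of -0.31 ± 0.072 (SE; edgeR FDR = 0.00205), or 0.81-fold. In wild-type MEFs it gave 592, 584 and 527 normalised counts untreated and 533, 540 and 557 after NCS, which overlapped. The wild-type log2 fold change was -0.068 (95% interval -0.21 to 0.075, edgeR FDR = 0.523), and -0.14 without both replicates 3 (edgeR FDR = 0.211). The 3KR NCS samples were also the lowest of all 12, below each wild-type NCS sample, with a genotype difference after NCS of -0.30 ± 0.072 (edgeR FDR = 0.00133). Both calls were kept in all 13 alternatives, at an FDR of at most 0.0261 and 0.00851. Without treatment the genotypes overlapped at -0.064 (edgeR FDR = 0.486), and the value ran from -0.13 without 3KR untreated replicate 3 to -0.0039 without 3KR untreated replicate 1, with an edgeR or DESeq2 FDR of at least 0.180 in each of its 13 alternatives. Exons of E2f5 overlap those of 1810022K09Rik on the opposite strand by 26 bases, and that gene had 147 to 276 reads per sample; whether the deposited counting used strand is not given in the sources used here.

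E2f6, which represses germline genes as part of the Polycomb complex PRC1.6, gave 1827, 1866 and 1860 normalised counts in wild-type untreated MEFs and 1663, 1663 and 1711 in 3KR untreated MEFs. The 3KR samples were all lower, by a log2 difference of -0.15 ± 0.048 (SE; edgeR FDR = 0.0166), and by -0.13 without both wild-type replicates 3 (edgeR FDR = 0.00433). Leaving out 3KR untreated replicate 1 or replicate 2 took the call just past the threshold (edgeR FDR = 0.0553 for each). After NCS E2f6 gave 1898, 1919 and 1673 normalised counts in wild-type and 1888, 1801 and 1784 in 3KR MEFs, so wild-type NCS replicate 3 was the lowest of the treated samples and the groups overlapped (log2 difference -0.0047, edgeR FDR = 0.950). All 3KR NCS samples were above all 3KR untreated samples, with a log2 fold change of 0.12 ± 0.049 that was not called (edgeR FDR = 0.0627). That value was past the threshold without both wild-type replicates 3 (0.12, edgeR FDR = 0.00792), in a fit of the 6 3KR samples alone (0.12, edgeR FDR = 0.00860) and among genes with at least 10 counts in every sample (0.13, edgeR FDR = 0.0463). In wild-type MEFs the NCS value was -0.019 (edgeR FDR = 0.821) and became 0.045 without both replicates 3 (edgeR FDR = 0.495).

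The atypical members E2f7 and E2f8 were highest in 3KR NCS MEFs. E2f7 gave 682, 750 and 693 normalised counts in wild-type untreated and 637, 621 and 731 in wild-type NCS MEFs. In 3KR MEFs it gave 737, 768 and 782 normalised counts untreated and 1015, 884 and 837 after NCS. All 3 samples of 3KR NCS MEFs were above the other 9 samples, while the wild-type groups overlapped. The log2 fold change with NCS was 0.26 ± 0.071 (SE) in 3KR (1.20-fold, edgeR FDR = 0.00644) and -0.099 ± 0.073 in wild-type MEFs (edgeR FDR = 0.358). The 3KR value rested in part on 3KR NCS replicate 1, the highest sample, and was 0.18 without it (edgeR FDR = 0.0813). Without both wild-type replicates 3 the wild-type value was -0.19 (edgeR FDR = 0.0481). After NCS E2f7 was higher in 3KR than in wild-type MEFs by 0.46 ± 0.072 (1.38-fold, edgeR FDR = 1.11e-05), with no overlap and a call in all 13 alternatives, whereas without treatment the groups overlapped at 0.10 (edgeR FDR = 0.267).

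E2f8, which pairs with E2f7 in repressing E2F targets, gave 469, 518 and 506 normalised counts in 3KR untreated and 664, 672 and 655 in 3KR NCS MEFs. In wild-type MEFs it gave 438, 440 and 493 normalised counts untreated and 518, 449 and 528 after NCS. The 3KR NCS samples lay close together and above all other samples. The wild-type groups overlapped, although each NCS sample was above the untreated sample of the same number. The rise in 3KR MEFs was the largest called NCS response of any member, at a log2 fold change of 0.42 ± 0.071 (SE; 1.34-fold, edgeR FDR = 7.32e-05), against 0.12 ± 0.073 in wild-type MEFs (95% interval -0.030 to 0.27, edgeR FDR = 0.246), where it was 0.13 without both replicates 3 (edgeR FDR = 0.261). Over its 13 alternatives the wild-type value ran from 0.075 to 0.19, with an edgeR or DESeq2 FDR of at least 0.0760. After NCS the genotypes differed by 0.42 ± 0.071 (1.33-fold, edgeR FDR = 3.68e-05). Both calls were kept in all 13 alternatives, at an FDR of at most 0.00117 and 6.26e-04. Without treatment the difference was 0.12 (edgeR FDR = 0.198), and 0.18 without both wild-type replicates 3 (edgeR FDR = 0.0477). Exons of E2f8 overlap the opposite-strand transcript Gm2788 by 610 bases, but Gm2788 had 5 to 22 reads per sample against 434 to 656 for E2f8. E2f3 contains the antisense gene Gm11365 with no shared exon bases and 0 to 2 reads per sample, and E2f7 shares 86 exon bases with the antisense gene 1700020G17Rik.

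**Figure D3:**
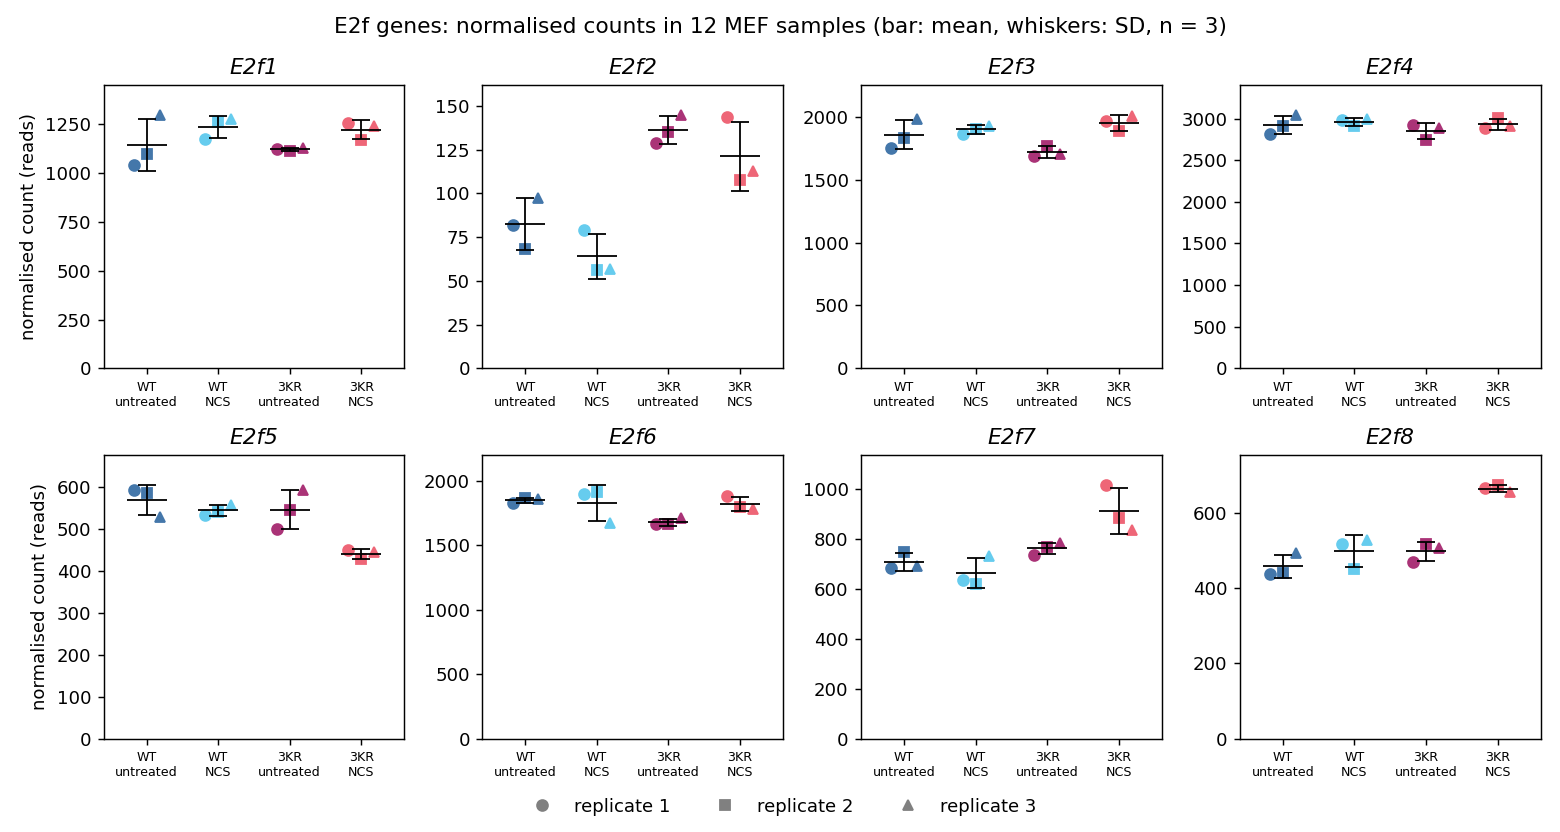
Normalised counts (vertical axes, reads divided by DESeq2 size factors) of each E2f gene in the 3 replicates of each group, with bars at the mean and whiskers of 1 SD. E2f2 is higher in all 3KR samples than in all wild-type samples, E2f5 is lowest and E2f7 and E2f8 are highest in 3KR NCS MEFs, and E2f4 stays between 2746 and 3039.

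Whether the genotypes responded differently was tested as the response in 3KR minus the response in wild-type MEFs. Of the 8 members 1 was called, E2f7, against 3.73% of all tested genes (1.86% higher and 1.87% lower). The E2f7 difference was 0.36 ± 0.10 (SE) on the log2 scale (95% interval 0.15 to 0.57, edgeR FDR = 0.0478) and stood at the edge of the threshold. It ran from 0.27 to 0.45 over 18 alternatives, positive in all of them, with an FDR between 4.55e-04 and 0.171. The call was kept when wild-type untreated replicate 3, wild-type NCS replicate 3 or 3KR NCS replicate 3 was left out. It was lost without wild-type untreated replicate 1 (edgeR FDR = 0.0536) or 2 (0.124), wild-type NCS replicate 1 (0.114) or 2 (0.137), 3KR untreated replicate 1 (0.126), 2 (0.0947) or 3 (0.0782), and 3KR NCS replicate 1 (0.171) or 2 (0.0705). Leaving out both wild-type replicates 3 gave 0.45 (edgeR FDR = 4.55e-04), and DESeq2 gave 0.35 (DESeq2 FDR = 0.0438), while edgeR with DESeq2 size factors gave 0.35 (edgeR FDR = 0.0549). The background moved as well: 572 of all tested genes were called in the main fit and 1842 without both wild-type replicates 3. With 1 library left out it ran from 345 to 1159 genes.

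E2f3, E2f5 and E2f8 were called in 3KR and not in wild-type MEFs, but the difference between the responses was not called for them in the fit without a block. That difference was 0.16 for E2f3 (95% interval 0.022 to 0.29, edgeR FDR = 0.221), -0.24 for E2f5 (-0.45 to -0.033, edgeR FDR = 0.223) and 0.30 for E2f8 (0.086 to 0.51, edgeR FDR = 0.117). Their unadjusted intervals lie on a single side of 0. Without both wild-type replicates 3 the differences were 0.12, -0.18 and 0.28 (edgeR FDR = 0.223, 0.343 and 0.0772). With genotype and replicate number as a replicate block, the E2f8 difference was past the threshold (0.30, edgeR FDR = 0.0485), where same-numbered wild-type samples deviated together (correlations 0.144, 0.139 and 0.318) and 3KR samples did not, and where the labels do not say that a number marks a shared culture. Over its 18 alternatives the E2f8 FDR ran from 0.0485 to 0.296. For E2f1 the difference was 0.017 (-0.17 to 0.20, edgeR FDR = 0.951), and its sign turned without both wild-type replicates 3 (-0.059, edgeR FDR = 0.705). The differences of E2f2, E2f4 and E2f6 were 0.21, 0.026 and 0.14 (edgeR FDR = 0.731, 0.866 and 0.311), and without both wild-type replicates 3 they fell to 0.0057, 0.0027 and 0.074 (edgeR FDR = 0.993, 0.983 and 0.490).

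Markers of other cell types moved with genotype beside the family's differences. All 10 macrophage markers were called higher in 3KR untreated than in wild-type untreated MEFs, with a median log2 difference of 1.06, and 8 of 10 after NCS (median 1.01). Their summed level was 64.1, 59.5 and 55.5 CPM in wild-type untreated, 62.7, 64.4 and 60.3 in wild-type NCS, 119, 123 and 121 in 3KR untreated and 109, 108 and 106 CPM in 3KR NCS MEFs, with Csf1r the most abundant and none at 0 counts. Schwann cell or neural crest markers went the other way: 5 of 6 were called lower in 3KR MEFs under both treatments, with medians of -2.30 and -2.60. Their summed level was 204, 204 and 209 CPM in wild-type untreated, 199, 197 and 195 in wild-type NCS, 42.5, 41.5 and 41.2 in 3KR untreated and 35.0, 34.1 and 33.8 CPM in 3KR NCS MEFs, with Ngfr the most abundant. Fibroblast markers were higher in 3KR for 9 of 10 genes and lower for 1 without treatment (median 0.38), and higher for 8 and lower for 1 after NCS (median 0.33). Of the remaining lists, 2 of 3 tested skeletal muscle markers were lower under both treatments, 2 of 4 tested epithelial markers were higher and 2 lower, and 1 of 4 tested endothelial markers was lower. Of all tested genes 22.1% were called higher and 23.6% lower without treatment, and 22.9% higher and 23.6% lower after NCS. The endothelial count lies near these shares. With NCS in 3KR MEFs 3 of 6 Schwann cell or neural crest markers fell (median -0.24), 2 of 10 macrophage markers fell (median -0.17), 2 of 10 fibroblast markers rose and 5 fell (median -0.064), and 1 of 4 tested epithelial markers rose (median -0.088). With NCS in wild-type MEFs 4 of 10 fibroblast markers rose and 1 fell (median 0.072) and 1 of 10 macrophage markers rose (median 0.14), while the Schwann cell or neural crest list had a median of -0.021. Of all tested genes NCS raised 15.8% and lowered 15.0% in 3KR MEFs, and raised 14.3% and lowered 12.4% in wild-type MEFs. The macrophage counts with NCS lie near these shares. The difference between the responses was called lower for 4 of 10 fibroblast and 1 of 10 macrophage markers, against 1.87% of all tested genes. In bulk cultures fewer cells of a type and less RNA per cell cannot be told apart. The part of these cells in the differences and responses of the E2f genes was not tested.

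The direct partners of the family were followed in lists of known genes, whose medians can be set beside those of all tested genes, 0.0054 and -7.8e-04 for NCS in wild-type and 3KR MEFs and -3.6e-04 and 0.0037 for genotype without and with NCS. The shares of all tested genes called in these comparisons, 26.7%, 30.8%, 45.7% and 46.5%, are the background for each count. Of 5 genes for pocket proteins and DP partners, NCS raised 1 and lowered 1 in wild-type and raised 2 and lowered 2 in 3KR MEFs (median log2 fold change -0.043 and -0.12). Rb1, the retinoblastoma gene, rose by 0.84 ± 0.065 (SE; edgeR FDR = 8.47e-10) in wild-type and 0.82 ± 0.069 (edgeR FDR = 2.85e-09) in 3KR MEFs, while Rbl1, which encodes p107, fell by 0.18 ± 0.060 (edgeR FDR = 0.0242) and 0.30 ± 0.057 (edgeR FDR = 2.54e-04). Between genotypes 4 of the 5 were higher and 1, Rb1, was lower in 3KR under both treatments (median 0.28 in each), with Tfdp1, the gene of the main DP partner, higher by 0.22 (edgeR FDR = 1.89e-06) and 0.36 (edgeR FDR = 6.77e-10). Of 7 genes for the MuvB core, B-Myb and FoxM1, which share cell cycle promoters with E2F4, 1 fell with NCS in each genotype: Foxm1, by 0.43 ± 0.051 (edgeR FDR = 1.05e-06) in wild-type and 0.17 ± 0.051 (edgeR FDR = 0.0118) in 3KR MEFs. In the 3KR genotype 2 of the 7 were higher without treatment and 3 after NCS (medians 0.11 and 0.26), among them Mybl2 (0.25, edgeR FDR = 0.00367, and 0.49, edgeR FDR = 2.23e-06). No gene of either list was called for the difference between the responses.

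Upstream of the pocket proteins, 9 genes for G1/S cyclins and their kinases and 6 measured CDK inhibitors were counted. After NCS 1 of the 9 fell in wild-type MEFs, and 1 rose and 2 fell in 3KR MEFs (medians -0.0091 and -0.065), led by cyclin A2 (Ccna2) with log2 fold changes of -0.83 ± 0.043 (SE; edgeR FDR = 6.06e-13) and -0.54 ± 0.041 (edgeR FDR = 4.82e-10). In 3KR against wild-type MEFs 2 were higher and 4 lower without treatment, and 3 higher and 5 lower after NCS (medians -0.19 and -0.15), with Ccnd2 lower by -0.31 (edgeR FDR = 3.83e-08) and -0.38 (edgeR FDR = 9.70e-10). Of the 6 CDK inhibitors 4 rose and 2 fell in wild-type and 1 rose and 2 fell in 3KR MEFs after NCS (medians 0.19 and -0.052), and Cdkn1a, which encodes p21, rose by 1.18 ± 0.028 (edgeR FDR = 1.32e-18) and 1.34 ± 0.028 (edgeR FDR = 1.02e-19). Between genotypes 3 were higher and 3 lower without treatment and 2 higher and 3 lower after NCS (medians 0.053 and -0.12), Cdkn1a being lower in 3KR by -0.83 (edgeR FDR = 2.86e-17) and -0.67 (edgeR FDR = 1.65e-15).

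Lists of genes that E2F proteins are known to regulate differed in what they showed between genotypes. Of 30 E2F-regulated replication genes, 26 were called without treatment and 28 after NCS, all of them higher in 3KR, against 22.1% and 22.9% of all tested genes called higher, with median log2 differences of 0.33 and 0.41. Mcm3, a subunit of the replicative helicase, differed by 0.43 ± 0.037 (SE; edgeR FDR = 8.99e-10) and 0.46 ± 0.037 (edgeR FDR = 4.00e-10). With NCS 5 of the 30 rose and 2 fell in wild-type (median 0.0087) and 10 rose and 1 fell in 3KR MEFs (median 0.10), with Rrm2, a subunit of ribonucleotide reductase, up by 0.30 (edgeR FDR = 7.83e-06) and 0.41 (edgeR FDR = 4.03e-08), and none was called for the difference between the responses. All 20 G2/M genes fell with NCS in wild-type MEFs (median -0.83) and 19 of 20 in 3KR MEFs (median -0.55), 13 of the 20 had a called difference between the responses, all higher, against 1.86% of all tested genes called higher, and 19 were higher in 3KR without treatment and 20 after NCS (medians 0.26 and 0.55).

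Of 26 p53 target genes, 19 rose and 2 fell with NCS in wild-type and 20 rose and 2 fell in 3KR MEFs (medians 0.56 and 0.77), while in 3KR against wild-type MEFs 1 was higher and 19 lower without treatment and 3 higher and 16 lower after NCS (medians -0.29 and -0.16). The difference between the responses was called for 9 of the 26, all higher, against 1.86% of all tested genes called higher. Of 6 tested E2F-regulated apoptosis genes, 4 rose and 1 fell in both genotypes (medians 0.44 and 0.38), with Apaf1, the scaffold of the apoptosome, up by 0.89 ± 0.038 (SE; edgeR FDR = 3.31e-14) and 1.04 ± 0.039 (edgeR FDR = 1.77e-15). In 3KR MEFs 1 was higher and 2 lower without treatment and 1 lower after NCS (medians -0.0024 and 0.0013). Of 15 genes for E2F1 acetylation and break-site partners, 2 rose and 6 fell in wild-type and 1 rose and 5 fell in 3KR MEFs (medians -0.037 and -0.066). Kat2a, which encodes the acetyltransferase GCN5, fell by 0.32 (edgeR FDR = 1.38e-05) and 0.29 (edgeR FDR = 3.59e-05). In 3KR against wild-type MEFs 8 were higher without treatment, and 5 higher and 1 lower after NCS (medians 0.17 and 0.096).

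The partners and known targets of E2F6 had their own lists. Of 11 genes for the PRC1.6 complex, 1 rose and 3 fell with NCS in wild-type and 2 rose and 2 fell in 3KR MEFs (medians -0.071 and -0.010). In 3KR against wild-type MEFs 2 were higher and 5 lower without treatment, with Yaf2 lower by -0.37 ± 0.051 (SE; edgeR FDR = 1.64e-06), and 2 were higher and 4 lower after NCS (medians -0.081 and -0.057). Over all tested genes 45.7% and 46.5% were called in these comparisons. Of 5 germline genes known to be repressed by E2F6, 2 had enough reads to be tested, and the list summed to between 3.22 and 4.26 CPM in every sample, most of it Stag3. Slc25a31 was called lower in 3KR MEFs under both treatments (edgeR FDR = 6.54e-04 and 0.0406) at counts too low for a size to be given, and 0 of the 2 were called with NCS in either genotype.

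Genes whose log2 CPM followed that of a member called after NCS most closely over the 12 samples were found among 11809 others. For E2f8 these were Gjc1 (Pearson r = 0.951), Ugdh (0.946) and Ak4 (0.943), and for E2f7 they were Mbd4 (0.918), Tmem131l (0.916) and Dnm3os (0.910). For E2f3 they were Igf1r (0.936), Tagln2 (0.920) and Pfkfb3 (0.911), and for E2f5 Ikbkg (0.912), Prss42 (0.907) and Rspo3 (0.906). The samples fall into 4 groups and share genotype and treatment, and each r describes these samples with no test.

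Promoters were examined for the letters of the E2F site, because E2F proteins are known to bind promoters of E2f genes. RefSeq promoter windows (GRCm38.p6, 250 bases before to 50 after a start) matched E2f1, E2f2, E2f3, E2f6, E2f7 and E2f8, with 8 windows for 6 genes; E2f4 and E2f5 had none. Searching TTTCCCGC, TTTCGCGC, TTTGCCGC and TTTGGCGC on both strands found a match in 1 window each of E2f2, E2f3 and E2f7, against 2.27% of all 32851 windows in the table (744 windows). A window stands at a listed start, which need not be the main start of its gene, and sequence outside the windows was not searched. The only E2f1 window, chr2:154569377-154569676, had no match, which does not show that the main E2f1 promoter lacks these letters. E2f2 held TTTGGCGC, which is in 0.514% of windows, and E2f3 and E2f7 held TTTCCCGC on the opposite strand, which is in 1.07% of windows. The windows shown are those of the genes called after NCS or between genotypes that hold a match, and of E2f8 beside E2f7. They lie at chr4:136172024-136172323 on the plus strand (E2f2), chr13:29986014-29986313 on the minus strand (E2f3), chr10:110745189-110745488 on the plus strand (E2f7) and chr7:48881547-48881846 on the minus strand (E2f8), and capitals mark a match.
E2f2 promoter: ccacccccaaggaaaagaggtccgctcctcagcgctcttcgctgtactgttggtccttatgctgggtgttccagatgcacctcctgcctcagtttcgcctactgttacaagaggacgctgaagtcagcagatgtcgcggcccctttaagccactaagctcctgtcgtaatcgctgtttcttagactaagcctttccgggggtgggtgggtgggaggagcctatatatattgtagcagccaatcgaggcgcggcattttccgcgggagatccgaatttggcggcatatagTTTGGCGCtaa
E2f3 promoter: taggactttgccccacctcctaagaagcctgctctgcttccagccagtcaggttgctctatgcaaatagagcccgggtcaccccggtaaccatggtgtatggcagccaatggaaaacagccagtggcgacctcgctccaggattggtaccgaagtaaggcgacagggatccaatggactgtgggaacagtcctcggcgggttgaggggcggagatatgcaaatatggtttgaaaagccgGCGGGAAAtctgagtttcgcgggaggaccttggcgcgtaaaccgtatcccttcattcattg
E2f7 promoter: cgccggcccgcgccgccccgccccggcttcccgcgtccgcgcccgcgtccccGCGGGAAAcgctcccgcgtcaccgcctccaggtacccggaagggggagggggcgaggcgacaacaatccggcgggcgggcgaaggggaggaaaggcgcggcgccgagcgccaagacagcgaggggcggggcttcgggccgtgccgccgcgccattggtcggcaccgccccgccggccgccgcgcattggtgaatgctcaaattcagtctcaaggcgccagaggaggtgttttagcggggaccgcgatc
E2f8 promoter: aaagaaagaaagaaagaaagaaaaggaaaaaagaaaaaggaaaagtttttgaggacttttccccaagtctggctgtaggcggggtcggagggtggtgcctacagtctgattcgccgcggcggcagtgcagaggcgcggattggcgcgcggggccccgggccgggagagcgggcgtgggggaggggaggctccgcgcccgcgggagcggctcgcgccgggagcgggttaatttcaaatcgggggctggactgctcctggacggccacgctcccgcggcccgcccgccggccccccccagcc
A match describes letters only, and the E2f8 window without capitals says only that these letters are not in it.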

How the data were processed

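The authors deposited raw counts per gene, 1 file per sample, from libraries made with a stranded mRNA kit; the submitters' processing notes name TopHat, HTSeq, DESeq and the build mm9, without versions. Strand use in counting is not given in the sources used here. Identifiers were matched to symbols (32919 of 37991), and lengths came from GENCODE M21 (GRCm38), so no gene coordinates are given in the build of the counts. Counts were tested with edgeR 4.0.16 (R 4.3.3) by its quasi-likelihood test with TMM scaling, filterByExpr by group, 1 coefficient per group over all 12 samples and Benjamini-Hochberg adjustment over 15327 genes. The procedure was tested on simulated data. Normalised counts are counts divided by size factors of DESeq2 1.42.0. RPKM was computed from the deposited counts with TMM-scaled library sizes. Log2 CPM used a prior count of 2. Alternatives were DESeq2 size factors, the DESeq2 test, other filters, a replicate block, fewer samples and other lengths.

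Deviations of same-numbered samples from their group means, over 11810 genes, correlated at 0.144, 0.139 and 0.318 between wild-type untreated and wild-type NCS MEFs, each over the 0.1 taken as the mark of pairing; the highest belongs to replicate 3, which stands apart in both groups, and deviations of 3 samples sum to 0, so the pairing may rest on that replicate. In 3KR MEFs the correlations were -0.098, -0.088 and -0.021, and the numbers do not pair the samples. Members and gene lists were chosen with earlier results of these data known. Named genes are the 8 members, up to 3 called genes per direction, list and comparison with the lowest p (of which examples are given), the 3 genes most correlated with each member called after NCS, Xist, Ddx3y and genes overlapping a member. Some list genes are named for their level alone, as the most abundant, the widest in range or those at 0 counts. Cdkn2d was listed among the CDK inhibitors and did not match by symbol.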

Additional observations from a re-analysis of the deposited data

Results flagged for a closer look

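A difference between the genotypes in the NCS response, past an edgeR FDR of 0.05 for the response in 3KR minus the response in wild-type MEFs, marked 12 named genes for a closer look. Over all tested genes 3.73% were called for this difference. The named list genes were picked for a low p in these data, so the 12 cannot be set against that share. In the family this was E2f7, at 0.36 on the log2 scale (edgeR FDR = 0.0478), which rose in 3KR and was not called in wild-type MEFs. The call was kept without wild-type untreated replicate 3, wild-type NCS replicate 3 or 3KR NCS replicate 3, and was lost without any other single sample.

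The other 11 are listed partners or targets. Among the CDK inhibitors and cyclins the difference was 0.16 for Cdkn1a (edgeR FDR = 0.0189), -0.54 for Cdkn1c (edgeR FDR = 0.00210) and 0.29 for Ccna2 (edgeR FDR = 0.00490). Among G2/M genes that fell in both genotypes it was 0.20 for Mki67 (edgeR FDR = 0.0417), 0.38 for Bub1b (edgeR FDR = 7.69e-04), 0.36 for Kif11 (edgeR FDR = 5.82e-04), 0.38 for Cenpf (edgeR FDR = 0.0133) and 0.51 for Plk1 (edgeR FDR = 4.28e-05). Among the p53 targets it was 0.31 for Gtse1 (edgeR FDR = 0.0172), 0.34 for Ccng1 (edgeR FDR = 5.73e-05) and 0.34 for Eda2r (edgeR FDR = 0.00710).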

How the results depend on the processing

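Signs and calls that moved are given here as log2 values; none of the single-gene values whose sign turned was called, and the cause was not tested.

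E2f1 between genotypes turned positive after NCS without both wild-type replicates 3 (0.0113), and ran from -0.0502 to 0.0168 when 1 library was left out, positive without wild-type NCS replicate 3 (0.0119) or 3KR NCS replicate 2 (0.0168). Without treatment it was 0.0702 without both wild-type replicates 3, and ran from -0.0992 to 0.0638 with 1 library left out, positive without wild-type untreated replicate 3. The E2f1 difference between the responses was -0.0588 without both wild-type replicates 3 and ran from -0.0796 to 0.0834 with 1 library left out, negative without wild-type untreated replicate 3, wild-type NCS replicate 1 (-0.0172) or 3KR NCS replicate 1 (-0.00486).

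E2f3 with NCS in wild-type MEFs ran from -0.00951 to 0.0799, and E2f4 from -0.0105 to 0.0453, both negative only without wild-type untreated replicate 1. The E2f4 difference between the responses ran from -0.00389 to 0.0519, negative without wild-type untreated replicate 3 or 3KR untreated replicate 2 (-5.6e-04).

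E2f6 between genotypes after NCS was 0.00216 with no filter, 0.00416 with at least 10 counts in every sample and 7.7e-04 with only the 6 samples compared. It ran from -0.0600 to 0.0324 with 1 library left out, positive without wild-type NCS replicate 1 (0.0239) or 2 (0.0324), or 3KR NCS replicate 2 (0.00506) or 3 (0.0120). In wild-type MEFs the NCS value was 0.0446 without both wild-type replicates 3 and ran from -0.0561 to 0.0398, positive without wild-type NCS replicate 3.

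Counts of called members ran from 0 to 1 for NCS in wild-type MEFs when 1 library was left out, and were 2 without both wild-type replicates 3. The 26.7% of all tested genes called in the main fit is no background for these counts. They ran from 1 to 3 for genotype without treatment, and from 0 to 1 for the difference between the responses, which was 0 with DESeq2 size factors. Over all tested genes that difference was called for 572 genes, 345 to 1159 with 1 library left out and 1842 without both wild-type replicates 3.

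With a replicate block the difference between the responses was called for 2 members, E2f7 (0.36, edgeR FDR = 0.0127) and E2f8 (0.30, edgeR FDR = 0.0485), and for 1379 of all tested genes. For NCS in 3KR MEFs, where the numbers do not pair the samples, the replicate block added E2f1 (0.13, edgeR FDR = 0.0415) and E2f6 (0.12, edgeR FDR = 0.0234).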
